A study of Mus musculus with 3 samples.

Results

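Antioxidant and ferritin genes were followed across the blood cells of young mice, aged mice and aged mice given ascorbic acid. The set holds 31 genes chosen by symbol for what they encode, and all 31 were found among the 32285 genes of the deposited matrices. No measured value entered the rule of choice, though earlier results of these data were known when it was made. They fall into 8 role groups: 6 peroxiredoxins, 3 glutathione peroxidases, 4 genes of glutathione synthesis and reduction, 6 genes of the thioredoxin system, 3 genes of superoxide and peroxide removal, 5 genes of the NRF2 pathway and haem breakdown, the 2 ferritin chains, and a last pair, Msrb1 and Selenow.

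Superoxide dismutases turn superoxide into hydrogen peroxide, and catalase, peroxiredoxins and glutathione peroxidases then remove the peroxide with electrons passed on from NADPH by the thioredoxin and glutathione systems. Ferritin is a hollow shell of heavy and light chains that oxidises and stores iron, which otherwise feeds peroxide into radical chemistry, and red cells and phagocytes are known for high expression of different parts of this network. The transcription factor NRF2, held back by KEAP1, switches many of these genes on through antioxidant response elements, and iron regulatory proteins hold back the translation of ferritin mRNA by binding an iron-responsive element near its 5′ end.

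Single-cell RNA libraries were made from peripheral blood mononuclear cells, the fraction of blood left at the interface of a density gradient, of C57BL/6 mice, a common inbred strain. One library came from aged mice given AA (ascorbic acid, by the series' title) for 1 month, another from aged mice given PBS (buffer) for 1 month, and the last from young mice given PBS for 1 month. The design implies 2 comparisons, aged mice given ascorbic acid against aged mice and aged mice against young mice. Each group is a single library. The labels give neither an age in months nor the sex or number of mice behind a library, and the title speaks of middle-aged mice.

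The iron-responsive elements of the 2 ferritin mRNAs are shown because both ferritin chains are described further on across classes and libraries. Each stretch of 30 bases lies in exon 1, in the 5′ untranslated region of the GENCODE transcript on GRCm38, written 5′ to 3′ along the mRNA, with CAGTG, the conserved start of the loop, in capitals. The loop begins at base 99 of the Fth1 transcript and at base 90 of the Ftl1 transcript.
Fth1 chr19:9982731-9982760 (+): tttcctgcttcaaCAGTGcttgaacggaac
Ftl1 chr7:45459779-45459808 (-): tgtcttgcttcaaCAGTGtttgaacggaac
The stretches are identical at 27 of 30 bases, CAGTG included.

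Promoters were searched for the core of the antioxidant response element, spelled TGACNNNGC or TGAGNNNGC on either strand, in windows of 300 bases around the start sites of RefSeq's GRCm38.p6 annotation. At least 1 match was present for 7 of the 27 members with such a window (25.9%) and for 8314 of all 27025 genes with one (30.8%). Within these windows, a match was thus no more common among members than among genes in general. The members Prdx6, Gclc, Hmox1 and Gsr had no window and were not searched, and nor was any sequence outside the windows. One match each is shown, as a stretch of 30 bases with the match in capitals, for Prdx1, Srxn1 and Gclm, known NRF2 targets, and for Nfe2l2 itself, read along the strand that spells it.
Prdx1 chr4:116685456-116685485 (-): cctacgggggaTGACTCAGCgctttccctg
Srxn1 chr2:152105469-152105498 (+): aaattcacccTGAGTCAGCggccgggcgcg
Gclm chr3:122245413-122245442 (-): ctcgtgagagtTGACGGTGCgcccgggagc
Nfe2l2 chr2:75704884-75704913 (-): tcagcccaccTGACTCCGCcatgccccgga
Txnrd1, Txn2 and Sod1 held the other matches. A match is a run of letters and not a measured binding site, and no methylation or binding data were analysed here.

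The libraries held 80424480 unique molecular identifiers (UMIs, each standing for 1 captured mRNA molecule) for aged mice given ascorbic acid, 94944551 for aged mice and 64496639 for young mice, and 11002, 9726 and 8770 cells were kept from them with medians of 4080.5, 3603 and 4456.5 UMIs a cell. Cells were sorted into classes by marker genes, none of which is a member. T cells numbered 4434, 2122 and 5518 in the aged+AA, aged and young libraries, B cells 5030, 3864 and 2459, natural killer (NK) cells 122, 176 and 245, myeloid cells 273, 1899 and 66, and haemoglobin-rich barcodes, in which haemoglobin took at least 50% of UMIs, 2455, 6377 and 1410. Neutrophils and monocytes, sub-gates of the myeloid class, numbered 118 and 116 in the aged+AA library, 608 and 1103 in the aged library, and 9 and 52 in the young library. The T-cell list summed to 5104, 5093 and 5218 CPM (counts scaled to a common total for each class and library) in T cells, to 50.1, 33.6 and 27.5 CPM in B cells and to 304, 321 and 258 CPM in NK cells. The myeloid list reached 265, 346 and 382 CPM in T, B and NK cells of the aged library, 34.2, 42.4 and 34.5 CPM with ascorbic acid and 8.83, 12.7 and 8.23 CPM in the young library. Haemoglobin was present in all 3 lymphocyte classes, at 963 to 9303 CPM. Free RNA differed between libraries, with haemoglobin at 11.5%, 26.8% and 9.97% of its UMIs in the aged+AA, aged and young libraries. S100a8 and S100a9, neutrophil genes, reached 156 CPM together in T cells of the aged library, against 24.1 CPM with ascorbic acid and 5.21 CPM in the young library. Whether these neutrophil UMIs in T cells came from free RNA was not tested. The libraries shared 21 to 29 cell barcodes pairwise, against 12.6 to 15.7 had they been drawn independently. In sums over cells, fewer molecules per cell and fewer expressing cells cannot be told apart.

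The class with the highest CPM among T, B and NK cells, monocytes and neutrophils was the same in all 3 libraries for 12 of the 31 members: monocytes for Prdx1, Prdx2, Gpx1, Sod1 and Hmox2, neutrophils for Prdx5, Gsr, Txn1, Fth1, Glrx and Msrb1, and NK cells for Txnrd1. For 19 members it was the same in the aged+AA and aged libraries. The young neutrophil sum rests on 9 cells.

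**Figure D1:**
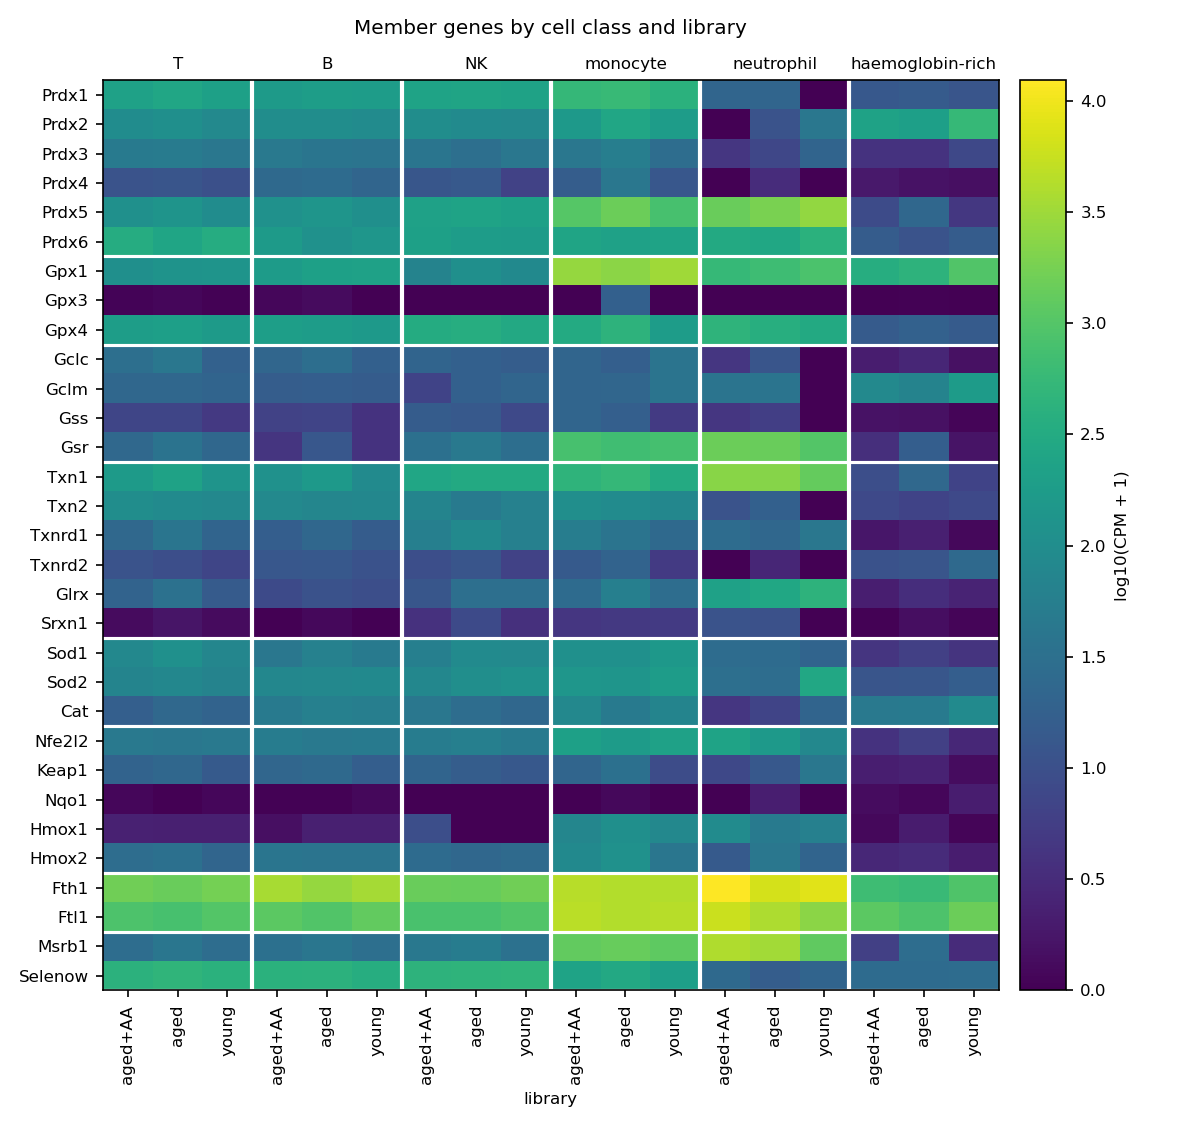
Heat map of log10(CPM + 1) for the 31 genes (rows, split by role group) in 6 cell classes, each with columns for the aged+AA, aged and young libraries. Haemoglobin-rich barcodes are scaled here on all their UMIs, haemoglobin included, so their other genes appear lower than on UMIs without haemoglobin. Gsr and Msrb1 are high in monocytes and neutrophils, Prdx1 and Prdx2 are low in neutrophils, and Gpx3 and Nqo1 are close to 0 in every lymphocyte class.

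Of the peroxidases that use glutathione, Gpx1, the cytosolic enzyme, had 2755, 2367 and 3277 CPM in monocytes of the aged+AA, aged and young libraries. Its levels in T cells were 106, 127 and 132 CPM and those in B cells were 174, 212 and 219 CPM, so monocytes stood more than 10 times above lymphocytes in each library. Gsr, glutathione reductase, which returns oxidised glutathione to its reduced form, had 785, 696 and 773 CPM in monocytes, and 1473, 1413 and 987 CPM in neutrophils. Its B-cell levels were 3.32, 11.8 and 2.95 CPM, far under both myeloid types in each library. Msrb1, a selenoprotein that repairs oxidised methionine, had 1292, 1406 and 1182 CPM in monocytes, 3966, 3304 and 1229 CPM in neutrophils, and 27.9, 39.4 and 28.4 CPM in T cells. Hmox1, the inducible enzyme that opens the haem ring, had 74.8, 106 and 80.1 CPM in monocytes and at most 8.61 CPM in any lymphocyte class of any library.

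Myeloid cells were higher than the mean of T, B and NK cells for 22 of the 29 members that could be tested and lower for 1, a share of 75.9% higher, where 26.8% of all 12526 genes tested were higher and 25.2% lower (edgeR, summed UMIs, Benjamini-Hochberg adjusted p under 0.05, library as a block). The members' median log2 fold change was 0.86, against -0.09 over all genes. Hmox1 was higher by a log2 fold change of 6.07 (SE 0.28, adjusted p 5.04e-11), Gsr by 5.80 (SE 0.21, adjusted p 4.22e-12), Msrb1 by 5.69 (SE 0.16, adjusted p 7.78e-13) and Gpx1 by 4.14 (SE 0.13, adjusted p 1.38e-12). Prdx5, a peroxiredoxin of mitochondria, peroxisomes and cytosol, followed with 3.17, sulfiredoxin Srxn1, which repairs over-oxidised peroxiredoxins, with 3.12, glutaredoxin Glrx with 2.59 and thioredoxin Txn1 with 2.24. Both ferritin chains were higher, Ftl1 by 2.28 (SE 0.15) and Fth1 by 1.60 (SE 0.16), and so was Nfe2l2, the gene of NRF2, by 2.16 (SE 0.13), while its inhibitor Keap1 had a log2 fold change of 0.34 (adjusted p 0.175).
The single member lower in myeloid cells was Selenow, a small selenoprotein, with a log2 fold change of -1.13 (SE 0.17, adjusted p 4.60e-05). Its levels were 233, 291 and 204 CPM in monocytes and 23.7, 15.4 and 20.1 CPM in neutrophils, under its 425, 467 and 404 CPM in T cells in each library. Of the role groups, 5 of 6 peroxiredoxins, both tested glutathione peroxidases and all 3 of Sod1, Sod2 and Cat were higher, and the thioredoxin system was split, with Txn1, Glrx and Srxn1 higher and Txn2, Txnrd1 and Txnrd2 not past the threshold. Without the aged library, which held most myeloid cells, 6 calls were lost: Gclm (adjusted p 0.0924), Gpx4 (0.157), Gss (0.259), Prdx2 (0.131), Prdx6 (0.168) and Prdx4 (0.71), the last with its sign turned to -0.23. Without the aged+AA library, Gpx4 (adjusted p 0.119) and Prdx6 (0.122) were lost. With the library as a block, the p-values rest on how far differences between classes varied among 3 libraries of different age and treatment. Separate animals are not documented for these libraries.

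**Figure D2:**
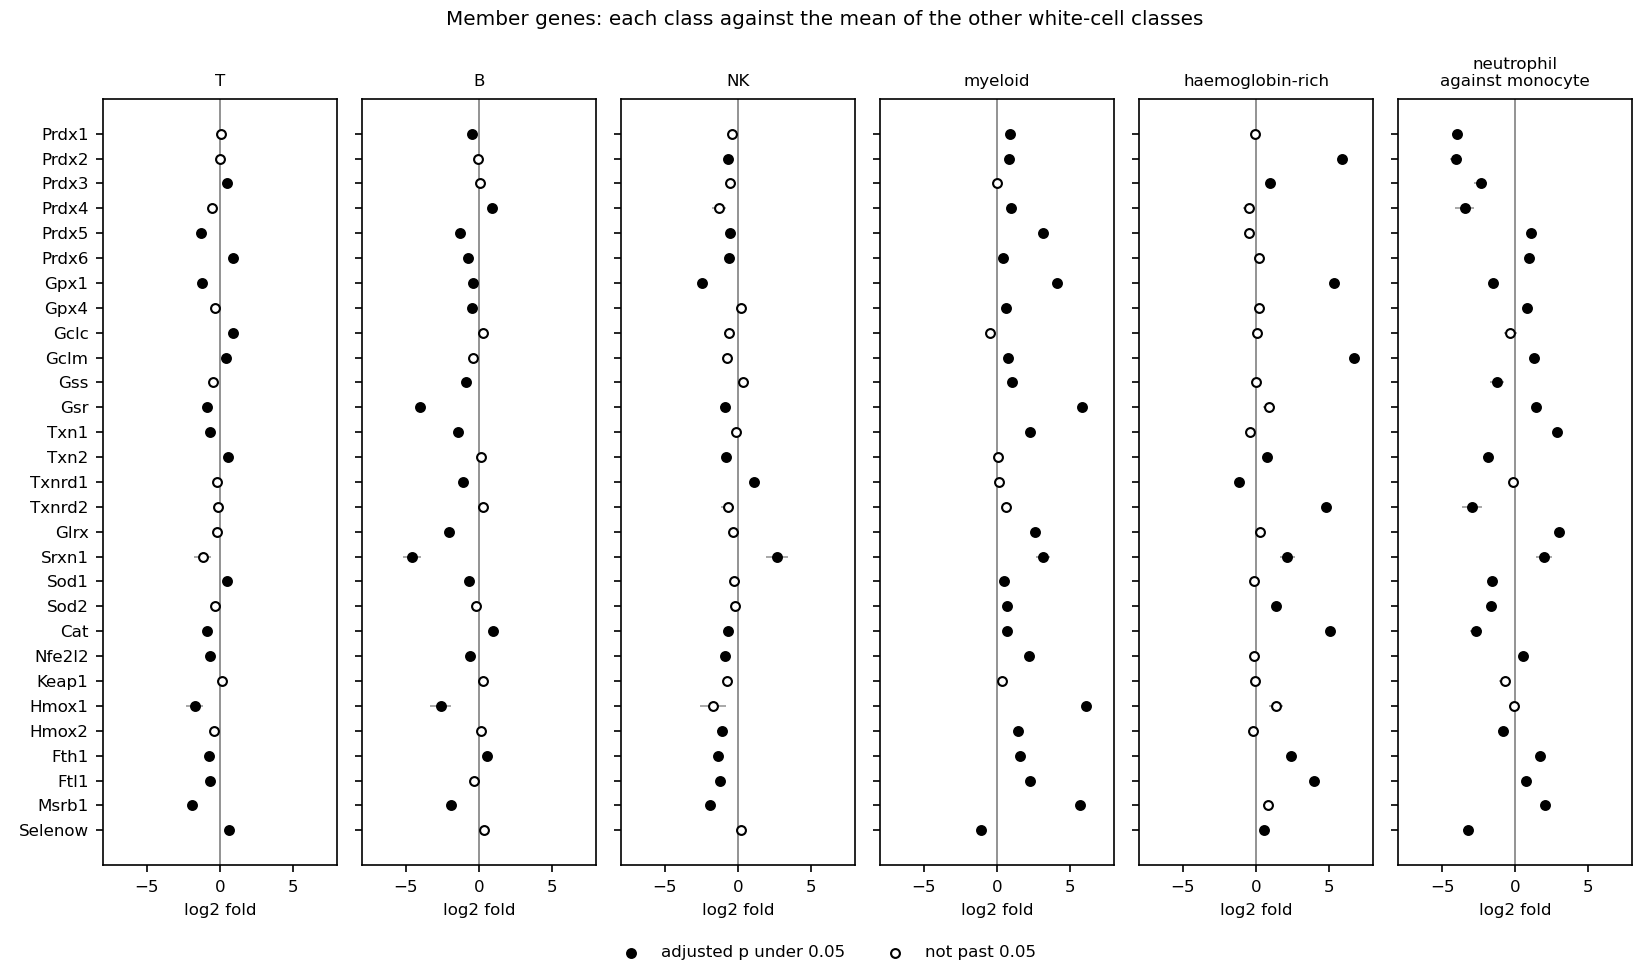
Log2 fold change of each tested member in 6 class contrasts, each class against the mean of the other white-cell classes and, last, neutrophils against monocytes; filled points have an edgeR adjusted p under 0.05. Most members lie right of 0 in myeloid cells, where Hmox1, Gsr and Msrb1 pass 5, and most of those past the threshold in B cells lie left of 0.

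Neutrophils and monocytes differed from each other in nearly every member: 12 of 29 were higher in neutrophils and 13 lower, where 18.3% of the 12236 genes tested were higher and 27.4% lower. The 9 young neutrophils were too few to enter the test. Higher in neutrophils were Txn1, Glrx, Msrb1, Gsr and both ferritin chains among others. Txn1 had 2277 and 2267 CPM in neutrophils of the aged+AA and aged libraries, against 455.5 and 532 CPM in monocytes, a log2 fold change of 2.86 (SE 0.23, edgeR adjusted p 2.04e-09). Neutrophil Fth1, the heavy chain that oxidises iron, stood at 12353 and 6704 CPM, against 4435 and 4195 CPM in monocytes, a log2 fold change of 1.72 (SE 0.24). The light chain Ftl1 was called higher by 0.75, but its CPM did not keep 1 order, at 5729 and 3864 CPM in neutrophils, against 4688 and 4183 CPM in monocytes. Glrx was higher by 3.03, Msrb1 by 2.02, Gsr by 1.42, Gclm, the modifier subunit of glutamate-cysteine ligase, by 1.30, and Prdx5 by 1.10.
The typical peroxiredoxins went the other way. Prdx1 of the cytosol had 20.3 and 20.7 CPM in neutrophils, against 529 and 572 CPM in monocytes, and Prdx2 had 0 and 10.0 CPM, against 162 and 265 CPM. Their log2 fold changes were -4.00 (SE 0.30) and -4.06 (SE 0.41), and Prdx3 of mitochondria and Prdx4 of the endoplasmic reticulum were lower by -2.37 and -3.46. Both superoxide dismutases and catalase were lower in neutrophils (Sod1 -1.57, Sod2 -1.64, Cat -2.71), as were the mitochondrial pair Txn2 (-1.87) and Txnrd2 (-2.93), Gpx1 (-1.49) and Selenow (-3.22). Prdx6, which takes electrons from glutathione and also has phospholipase activity, was the other peroxiredoxin higher in neutrophils, by 0.93 (SE 0.24). Without the aged+AA library 6 calls were lost, those of Ftl1 (adjusted p 0.202), Gpx4 (0.224), Gss (0.171), Hmox2 (0.306), Nfe2l2 (0.184) and Srxn1 (0.0535). Without the aged library Gclm (adjusted p 0.206), Gss (0.334), Hmox2 (0.0671) and Prdx4 (0.0817) missed the threshold and Srxn1 and Txnrd2 could not be tested, and without the young library Ftl1 did (0.0582).

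T cells were higher for Prdx6 and Gclc. Prdx6 had 343, 249 and 347 CPM in T cells of the aged+AA, aged and young libraries, against 171, 116 and 140.0 CPM in B cells, 212.5, 182 and 176 CPM in NK cells, 246.5, 222 and 232 CPM in monocytes and 301, 271.5 and 403 CPM in neutrophils. It was above B and NK cells and monocytes in each library but under neutrophils in the aged and young libraries. It was higher than the mean of the other white-cell classes by 0.92 on the log2 scale (SE 0.14, edgeR adjusted p 7.56e-05). Gclc, the catalytic subunit of glutamate-cysteine ligase, the first enzyme of glutathione synthesis, had 30.01, 41.0 and 17.9 CPM in T cells. It was higher there by 0.87 (SE 0.16, edgeR adjusted p 0.000367). Its T-cell level was above B and NK cells in each library, and above monocytes in the aged+AA and aged libraries. Monocytes of the young library, 52 cells, had Gclc at 2.01 times the T-cell level. Of the other genes of glutathione synthesis and reduction, Gss did not pass the threshold (-0.48, adjusted p 0.0634) and Gsr was lower (-0.85). In all, 7 members were higher in T cells (24.3% of all genes were) and 10 lower (16.5% of all genes were), and their median log2 fold change was -0.33, against 0.08 over all genes. The other members higher were Selenow (0.63), Txn2 (0.56), Sod1 (0.51), Prdx3 (0.46) and Gclm (0.40), and the lowest were Msrb1 (-1.89), Hmox1 (-1.74), Prdx5 (-1.31) and Gpx1 (-1.26).
The T-cell counts rested in part on the aged+AA library. Without it, 2 members were higher, Prdx6 and Gclc, and 6 lower, and the calls lost were those of Fth1 (adjusted p 0.105), Ftl1 (0.113), Gclm (0.273), Hmox1 (0.898, with its sign turned to 0.29), Prdx3 (0.155), Selenow (0.0668), Sod1 (0.0781), Txn1 (0.0911) and Txn2 (0.0596). Without the aged library Gclm (0.119) and Hmox1 (0.0578) were lost, and without the young library Gclm (0.0587) and Prdx3 (0.0667).

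B cells had a narrow set of 3 high members, Cat, Prdx4 and Fth1. All 3 were also called higher in myeloid cells, by 0.65, 0.95 and 1.60 on the log2 scale. Monocytes stood above B cells for Cat in the aged+AA and young libraries, for Prdx4 in the aged library and for Fth1 in each library. Cat, the peroxisomal enzyme that splits hydrogen peroxide, had 45.1, 58.8 and 55.3 CPM in B cells, against 16.5, 23.5 and 18.9 CPM in T cells, and was higher than the mean of the other classes by 0.93 (SE 0.14, edgeR adjusted p 3.94e-05). Prdx4, which works where proteins are folded and secreted, had 24.2, 26.3 and 20.5 CPM, against 10.2, 11.1 and 8.90 CPM in T cells, and was higher by 0.92 (SE 0.23, adjusted p 0.00446). Fth1 had 3620, 2757 and 3434 CPM in B cells, against 1574, 1443 and 1695 CPM in T cells, above them in each library, and was higher by 0.54 (SE 0.17, adjusted p 0.016). Against these 3 higher members (26.1% of all genes were higher) stood 15 lower ones, 51.7% of those tested, where 18.3% of all genes were lower. Of the 6 genes of the thioredoxin system 4 were lower in B cells, Glrx (-2.04), Txn1 (-1.46), Txnrd1 (-1.08) and Srxn1 (0, 3 and 0 UMIs). Txn2 (0.17) and Txnrd2 (0.29) did not pass the threshold. Gsr was also lower (-4.03). Calls lost without the aged+AA library were those of Fth1 (adjusted p 0.144), Gpx1 (0.17), Gpx4 (0.18), Prdx1 (0.116) and Hmox1 (0.928, with its sign turned to 0.08). Fth1 (0.0541) and Gpx1 (0.0685) were also lost without the young library, and Gpx4 (0.125) without the aged library.

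NK cells were set apart by Txnrd1, the cytosolic selenoenzyme that recharges thioredoxin. It had 57.4, 85.3 and 59.0 CPM in NK cells, above its 23.0, 37.4 and 20.02 CPM in T cells and 15.9, 22.1 and 14.8 CPM in B cells in each library, a log2 fold change of 1.10 (SE 0.18, edgeR adjusted p 0.00021). The other member called higher was Srxn1, on 7 UMIs in all (1, 4 and 2), and that call was lost without any one library (adjusted p 0.0597 to 0.136). Members were higher in 2 cases and lower in 12, where 10.6% of all genes were higher and 10.5% lower, with both ferritin chains among the lower ones: Fth1 by -1.40 (SE 0.19) and Ftl1 by -1.27 (SE 0.18). NK cells had 1442, 1391 and 1621 CPM of Fth1, close to T cells and under B cells in each library. Gpx1 was the lowest against the mean, by -2.46, at 66.0, 108 and 87.8 CPM. Leaving out a library also cost 4 of the 12 lower calls each time, among Cat, Gsr, Hmox2, Prdx2, Prdx5 and Prdx6.

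Haemoglobin-rich barcodes, in which red-cell RNA dominates, had a set of high members that overlapped with that of myeloid cells. Cat, Fth1, Ftl1, Gclm, Gpx1, Prdx2, Sod2 and Srxn1 were called higher in both. Prdx3, Selenow, Txn2 and Txnrd2 were called higher in haemoglobin-rich barcodes but not in myeloid cells. With haemoglobin taken out of the totals, Prdx2, the abundant peroxiredoxin of red cells, had 2763, 2415 and 5952 CPM in the aged+AA, aged and young libraries. Gpx1 had 4266, 5147 and 10231 CPM, Gclm 1022, 782 and 1861 CPM and Cat 539, 570 and 957 CPM, so each of the 4 was highest in the young library. Against the mean of the white-cell classes, Gclm was higher by 6.68 on the log2 scale (SE 0.23, edgeR adjusted p 7.32e-12), Prdx2 by 5.87 (SE 0.28), Gpx1 by 5.34 (SE 0.21), Cat by 5.04 (SE 0.20), mitochondrial thioredoxin reductase Txnrd2 by 4.78 (SE 0.29), Ftl1 by 3.96 (SE 0.17) and Fth1 by 2.41 (SE 0.18). In all 12 of 29 members were higher and 1, Txnrd1 (-1.16), lower, where 15.6% of the 10647 genes tested were higher and 2.05% lower. Partners of these enzymes did not pass the threshold: Gclc had a log2 fold change of 0.03 (adjusted p 0.963), Gss, the second enzyme of glutathione synthesis, one of -0.03 (adjusted p 0.974) and Sod1 one of -0.11 (adjusted p 0.626).
The barcodes also held RNA of other cells. On UMIs without haemoglobin, the T-cell list summed to 1720, 865 and 1623 CPM, the B-cell list to 2241, 2158 and 848 CPM and the myeloid list to 1269, 10329 and 104 CPM, beside 51417, 36864 and 65756 CPM for the erythroid list. Prdx3, Selenow and Txn2 lost their calls without the aged+AA library (adjusted p 0.0501, 0.282 and 0.0586) and without the young library (0.498, 0.368 and 0.0876), and Srxn1 could not be tested without the aged library.

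**Figure D3:**
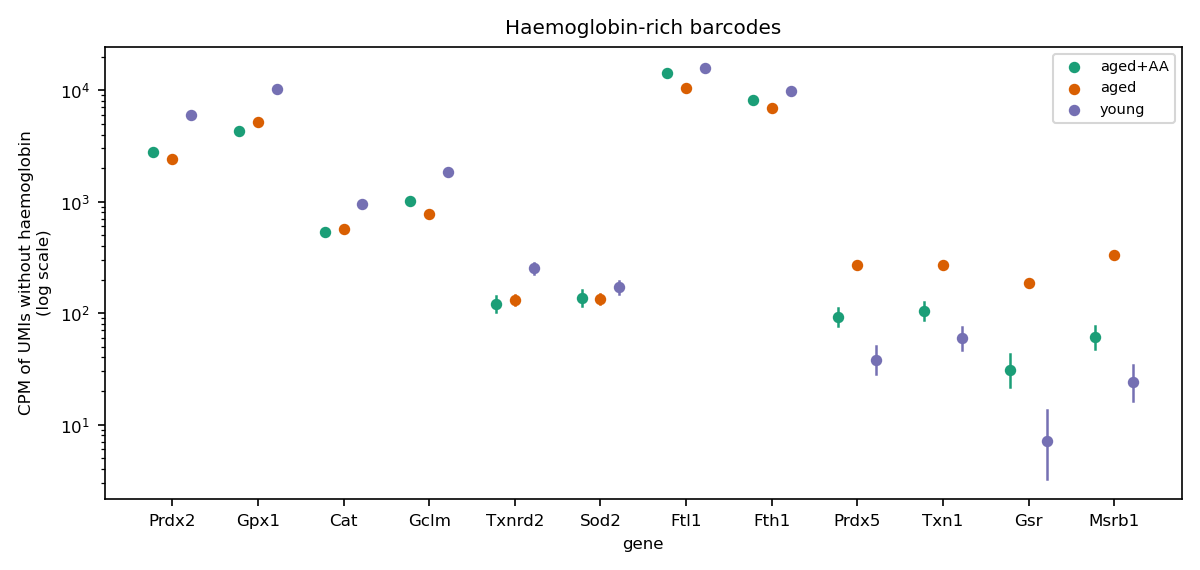
CPM of UMIs without haemoglobin (log axis) of 12 members in haemoglobin-rich barcodes, for the aged+AA, aged and young libraries, with 95% Poisson intervals for counting error only. Prdx2, Gpx1, Gclm and Cat are highest in the young library, and Gsr, Msrb1, Prdx5 and Txn1 are highest in the aged library.

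The balance of the ferritin chains differed between cell classes. Each UMI of this 3′ assay stands for 1 molecule whatever its length, so UMIs of the chains can be set against each other. There were 0.558, 0.551 and 0.591 Ftl1 UMIs per Fth1 UMI in T cells of the aged+AA, aged and young libraries, 0.320, 0.352 and 0.369 in B cells, and 0.576, 0.601 and 0.589 in NK cells. Monocytes had 1.06, 0.997 and 1.04, neutrophils 0.464, 0.576 and 0.299, and haemoglobin-rich barcodes 1.73, 1.496 and 1.61. B cells were thus the lymphocytes with the fewest light-chain UMIs per heavy-chain UMI in each library, and haemoglobin-rich barcodes were the one class with more light-chain than heavy-chain UMIs beyond counting error in all 3. NK cells and T cells were within counting error of each other in each library. Reads of Ftl1 can be shared with the near-identical copies Ftl1-ps1, Ftl1-ps2 and Ftl2-ps, and those of Gpx4 with Gpx4-ps2, so these counts are uncertain to that extent.

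Genes of the surrounding pathways were counted in the same tests. Of the 22 tested genes of iron and haem handling, 16 were higher and 2 lower in myeloid cells, where 26.8% of all genes were higher and 25.2% lower, among the higher Slc40a1, the iron exporter ferroportin, and Slc11a1, an iron transporter of phagosomes, and among the lower Tfrc, the transferrin receptor (log2 fold change -2.26). Of 9 genes of NADPH supply 6 were higher, G6pdx by 3.03 and Pgd by 3.21, and Cybb, the catalytic subunit of the phagocyte oxidase, was higher by 6.40. In haemoglobin-rich barcodes 10 of 22 iron and haem genes were higher and 0 lower, where 15.6% of all genes were higher, led by the haem synthesis genes Alas2 (12.5) and Fech (8.20), the mitochondrial iron importer Slc25a37 (7.34) and Ncoa4, the receptor for ferritin breakdown (5.87). B cells had Cybb (2.85) and the repressor Bach2 (2.96) higher. Of the 9 NADPH supply genes, 2 were higher and 6 lower there, where 26.1% of all genes were higher and 18.3% lower.

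Between libraries no replicate exists, so ratios are given with 95% intervals for counting error only, and no p. Each ratio was divided by the median ratio of all genes with at least 50 UMIs in the pair, since CPM moved as a whole: the median gene was higher in the aged than in the young library by 0.38 on the log2 scale in T cells, 0.28 in B cells and 0.65 in haemoglobin-rich barcodes, while its log2 ratio for aged+AA over aged was -0.20, -0.14 and -0.20 in those classes. Ribosomal protein genes took 38.0%, 33.6% and 41.0% of T-cell UMIs in the aged+AA, aged and young libraries. A ratio past 1.5-fold either way is counted. The aged library enters both comparisons, so a value that is off in it alone moves both in opposite directions.

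In T cells, ferritin and Prdx6 were lower in the aged than in the young library. Relative to all genes Fth1 was 0.653-fold (interval 0.641 to 0.665), Ftl1 0.608-fold (0.594 to 0.624) and Prdx6 0.550-fold (0.526 to 0.575). The levels behind them were 1443 CPM of Fth1, 795 CPM of Ftl1 and 249 CPM of Prdx6 in the aged library, against 1695, 1002 and 347 CPM in the young library, so all 3 were lower before the division too, though then by less than 1.5-fold. Gclc (1.75-fold, interval 1.54 to 2.00) and Glrx (1.79-fold, 1.54 to 2.07) were higher in the aged library, with 41.0 and 32.6 CPM there and 17.9 and 13.97 CPM in the young library.
These were 2 members higher and 3 lower of the 27 measured, where 25.5% of all genes were past the fold either way (14.0% higher, 11.5% lower), a share of members below the background. On plain CPM the same comparison gave 7 higher (Gclc, Gss, Gsr, Txn1, Txnrd1, Keap1 and Glrx) and 0 lower. The members' median was -0.06, against 0 over all genes by construction. Within the counted fold, Txnrd1 was 1.43-fold and Txn1 1.35-fold, and Nfe2l2 was 0.705-fold and Gpx1 0.736-fold.

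The T-cell pattern was checked in narrower cells because effector genes differed widely between libraries, with an effector list sum of 7217, 9295 and 1663 CPM in T cells of the aged+AA, aged and young libraries. T cells with no UMI of Ccl5, Nkg7, S100a4 or S100a6 had Prdx6 at 294 CPM in the aged and 366 CPM in the young library (0.648-fold, interval 0.592 to 0.709), and Gclc at 34.4 and 16.6 CPM (1.67-fold). Their ferritin was 0.715-fold for Fth1 and 0.744-fold for Ftl1, lower in the aged library but no longer past the counted fold, and Glrx, at 12.2 and 9.01 CPM, was not past it either. Prdx6 was 0.595-fold in CD8 T cells and 0.491-fold in CD4 T cells, Gclc 1.96-fold and 1.70-fold, and Glrx was past the fold in CD4 T cells alone, at 62.3 CPM in the aged and 17.9 CPM in the young library (2.68-fold, interval 2.06 to 3.51).

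In B cells of the aged library the ferritin chains were again lower than in the young library. Fth1 was 0.661-fold (interval 0.651 to 0.670) and Ftl1 0.631-fold (0.616 to 0.647) relative to all genes, from 2757 and 971 CPM in the aged library, against 3434 and 1266 CPM in the young library. Prdx6 was 0.682-fold (116 CPM in the aged, 140.0 CPM in the young library), just inside the counted fold, and Gclc was 1.42-fold. A plasma-cell list moved with the libraries in these B cells, at 906, 1367 and 396 CPM in the aged+AA, aged and young libraries, and its part in the B-cell ratios was not tested. Of 27 measured members 2 were higher and 2 lower, where 19.3% of all genes were past the fold (10.5% higher, 8.77% lower), and on plain CPM 5 were higher (Gclc, Gss, Gsr, Txn1 and Keap1) and 0 lower. Relative to all genes, the higher pair was Gsr, 3.28-fold (2.18 to 5.09) on 160 and 28 UMIs, and Gss, 1.62-fold (1.04 to 2.59) on 79 and 28 UMIs. Free RNA held 319 CPM of Gsr in the aged library, against 17.1 CPM in the young library, and with free RNA subtracted the log2 ratio of Gsr in B cells turned to -0.59.

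With ascorbic acid, Prdx6 and ferritin were higher than in the aged library in T and B cells, and Prdx6 was past the counted fold in both. In T cells Prdx6 was 1.58-fold (interval 1.51 to 1.65), Ftl1 1.27-fold (1.23 to 1.30) and Fth1 1.25-fold (1.23 to 1.27) relative to all genes, with 343, 878 and 1574 CPM in the aged+AA library, against 249, 795 and 1443 CPM in the aged library. In B cells Prdx6 was 1.63-fold (1.53 to 1.73), Fth1 1.45-fold (1.43 to 1.47) and Ftl1 1.32-fold (1.29 to 1.34), from 171, 3620 and 1157 CPM in the aged+AA library, against 116, 2757 and 971 CPM. All 3 genes were also higher on plain CPM in both cell types, by log2 ratios of 0.13 to 0.56, and none of them then passed the counted fold.
Lower with ascorbic acid was Glrx in T cells (0.664-fold, interval 0.576 to 0.766; 18.9 CPM in the aged+AA and 32.6 CPM in the aged library) and Gsr in B cells (0.311-fold, 0.230 to 0.417; 3.32 and 11.8 CPM), the second being the gene named above for its free RNA, at 71.4 CPM in that of the aged+AA library. Members past the fold were thus 1 higher and 1 lower of 27 in T cells, where 12.0% of all genes were (5.58% higher, 6.4% lower), and 1 higher and 1 lower of 27 in B cells, where 9.9% were (4.55% higher, 5.35% lower). Plain CPM gave 0 higher and 3 lower in T cells (Gsr, Txnrd1 and Glrx) and 0 higher and 2 lower in B cells (Gsr and Sod1). Prdx6 was 1.53-fold in CD8 T cells, 1.68-fold in CD4 T cells and 1.45-fold in T cells without the 4 effector genes, and Txnrd1 was 0.560-fold in CD4 T cells and 0.480-fold in those without effector genes.

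**Figure D4:**
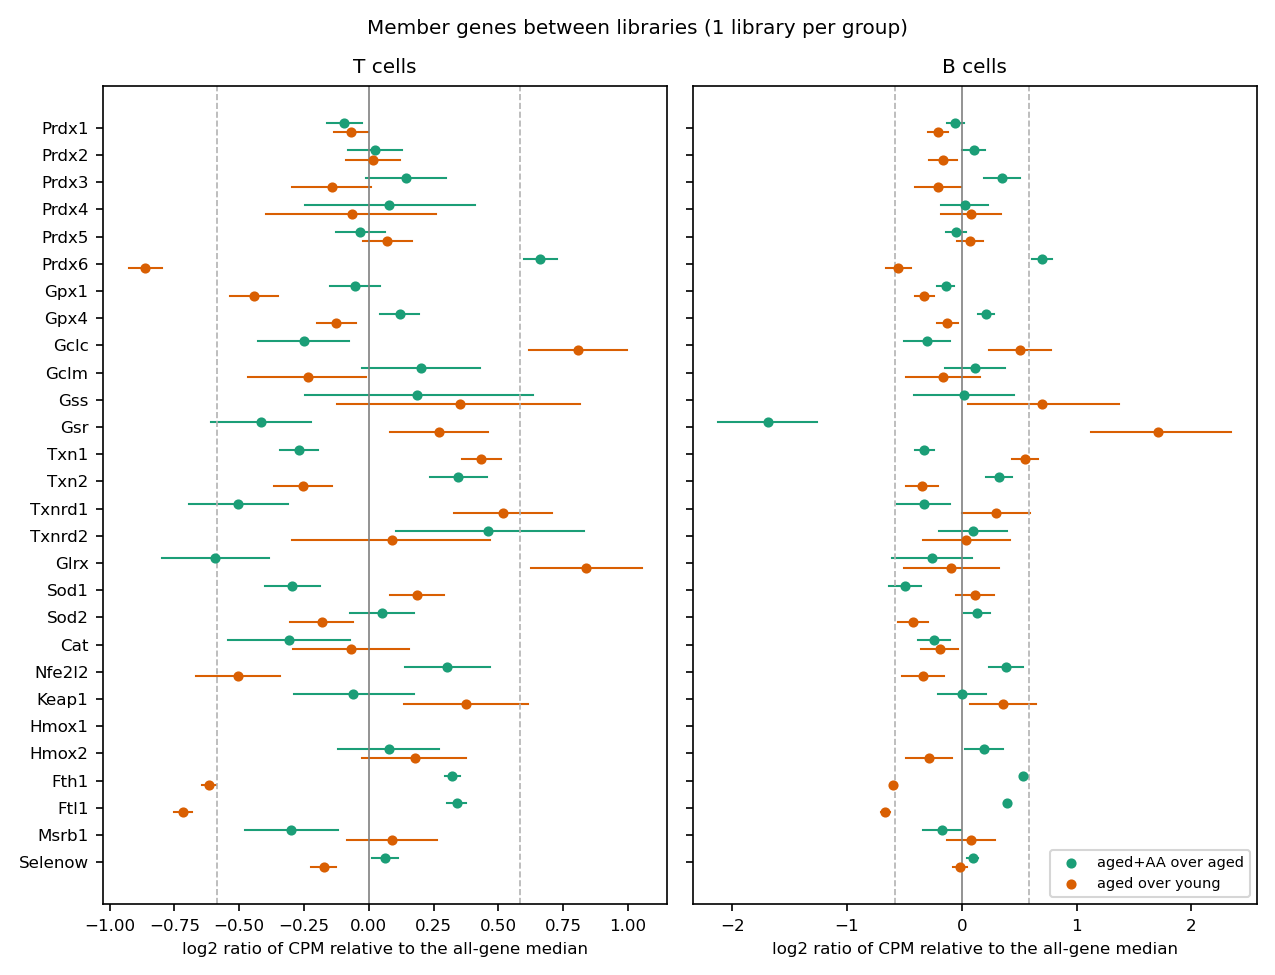
Log2 ratio of CPM, relative to the all-gene median, of each member measured in T cells and B cells (Hmox1 has too few UMIs for a point), for aged+AA over aged (green) and aged over young (orange), with 95% counting intervals and dashed lines at 1.5-fold either way. Prdx6, Fth1 and Ftl1 lie left of 0 for aged over young and right of 0 for aged+AA over aged, 2 comparisons that share the aged library.

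**Figure D5:**
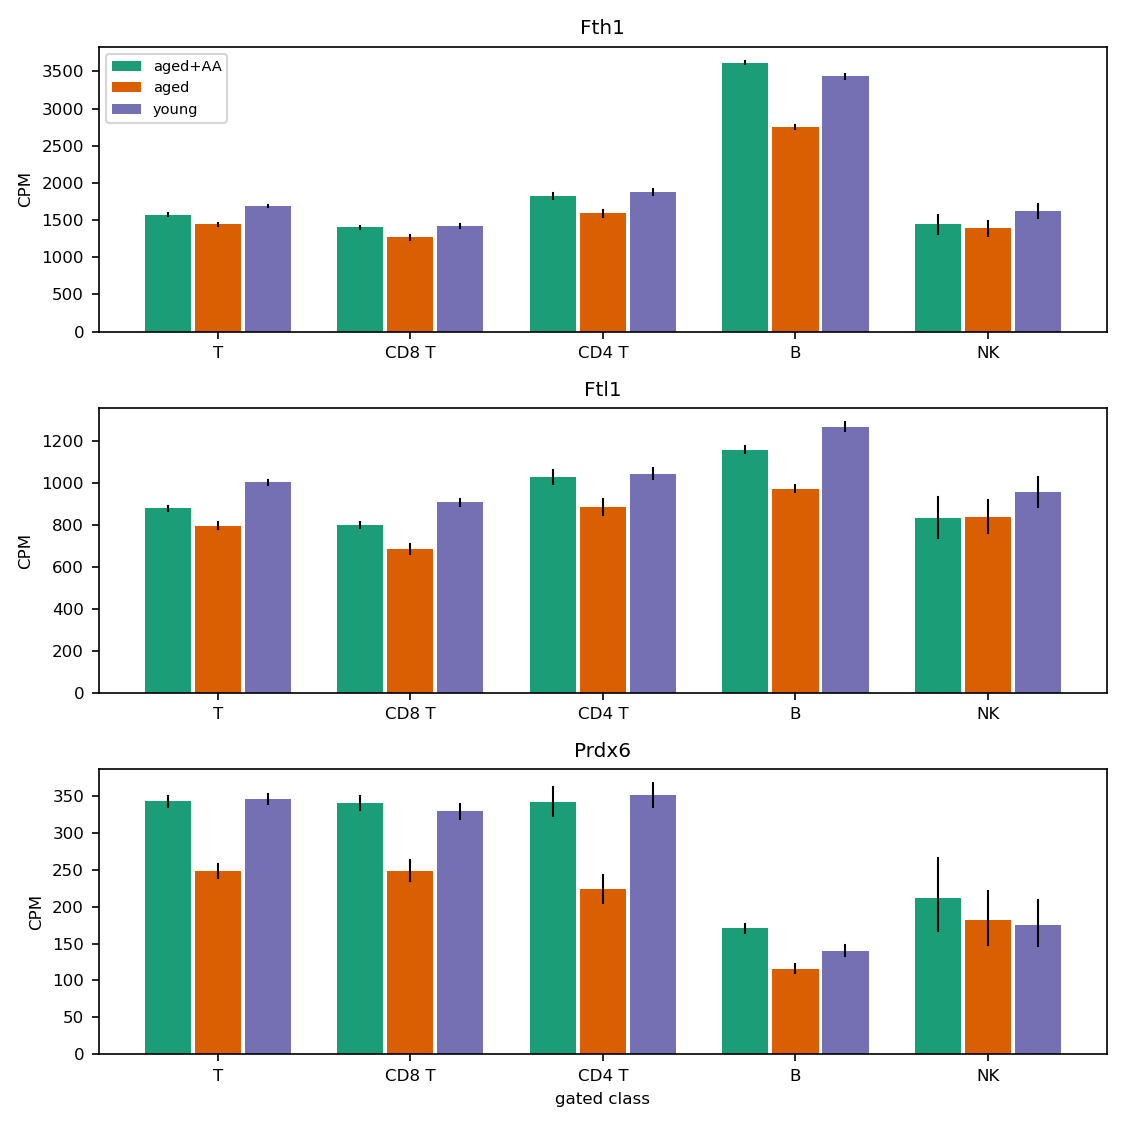
CPM of Fth1, Ftl1 and Prdx6 in T cells, CD8 T cells, CD4 T cells, B cells and NK cells of the aged+AA, aged and young libraries, with 95% Poisson intervals for counting error only. The aged library is the lowest of the 3 in each class but NK cells, where Prdx6 and Ftl1 do not follow that order.

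Counted per cell, the order was the same for Prdx6 and Fth1. After each cell was thinned to 1000 UMIs, Prdx6 was seen in 28.6% of T cells of the aged+AA library, 22.5% in the aged library and 30.4% in the young library, and before thinning in 78.1%, 62.6% and 78.6%. In B cells it was 15.5%, 11.2% and 13.3% after thinning and 45.0%, 30.8% and 37.0% before. Fth1 was seen in 95.4%, 90.7% and 94.4% of B cells and in 79.1%, 75.4% and 80.3% of T cells after thinning, so the aged library had the lowest share each time. Between 5 and 22 cells per library and class fell short of 1000 UMIs and were left out.

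Set against the young library, a comparison added after these values were seen, the aged+AA library had 0 of 28 members past the counted fold in T cells, where 14.3% of all genes were, and 1 of 27 in B cells, where 10.0% were. That one was Gss at 1.64-fold (interval 1.07 to 2.58) on 106 and 28 UMIs. In CD8 T cells 3 of 27 members were past the fold, all higher, where 13.3% of all genes were. In CD4 T cells 4 of 26 were, all higher, where 14.3% of all genes were. T cells without the 4 effector genes had 1 of 27 past it, also higher, where 9.68% of all genes were. Prdx6 was 0.866-fold in T cells and 1.11-fold in B cells, Fth1 0.813-fold and 0.957-fold, and Ftl1 0.767-fold and 0.829-fold. In T cells of the aged+AA library these 3 genes thus lay between the other libraries, relative to all genes.

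NK cells gave few values. Between the aged and young libraries 0 of 16 measured members passed the fold, where 19.8% of all genes did (10.8% higher, 9.05% lower), and between the aged+AA and aged libraries 0 were higher and 2 lower of 13, where 14.4% did (6.13% higher, 8.23% lower). Those were Gpx1 (0.622-fold, interval 0.366 to 1.02) and Sod1, the cytosolic superoxide dismutase (0.640-fold, 0.361 to 1.10), whose intervals both reach past 1, so neither was separable from no difference at this depth.

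Monocytes of the young library were 52 cells, and the ratios against them carry wide intervals. Members past the fold were 11 higher and 3 lower of 29 for the aged over the young library. Past it either way were 47.5% of all genes, a share close to that of the members. By direction, 37.9% of members were higher and 10.3% lower, against 25.9% and 21.6% of all genes. The 3 lower were Gclc (0.436-fold, interval 0.224 to 0.973), Gclm (0.585-fold, 0.302 to 1.30) and Cat (0.663-fold, 0.409 to 1.15), on 9, 9 and 17 UMIs in the young library. Higher ones with more UMIs were Gpx4, which clears lipid peroxides, with 444 CPM in the aged and 180.3 CPM in the young library (2.39-fold, interval 1.78 to 3.28), Prdx5 with 1467 and 793 CPM (1.80-fold, 1.56 to 2.08), Txn1 with 532 and 312.5 CPM (1.65-fold, 1.32 to 2.10) and Hmox2, the constitutive haem oxygenase, with 115 and 40.1 CPM (2.78-fold, 1.504 to 5.81). Ferritin did not move past it in monocytes, at 4435, 4195 and 4243 CPM for Fth1 and 4688, 4183 and 4431 CPM for Ftl1 in the aged+AA, aged and young libraries. For the aged+AA over the aged library, 1 was higher and 5 lower of 29, where 30.9% of all genes were past the fold: Cat higher (1.64-fold, 1.19 to 2.22), and Prdx2 (0.582-fold), Prdx4 (0.351-fold), Glrx (0.417-fold), Keap1 (0.609-fold, 0.311 to 1.08) and Gpx3 lower.
Gpx3, the secreted glutathione peroxidase of plasma, had 155 UMIs in monocytes of the aged library and 0 in those of the aged+AA and young libraries. Against a floor of 3 counts per library it was at least 3.54-fold lower with ascorbic acid, and at least 1.39-fold higher in the aged than in the young library, so the young library was too small to place it past the counted fold and its count among the 11 is not backed by the bound. In neutrophils of the aged+AA library Fth1 was 1.76-fold that of the aged library (interval 1.70 to 1.83) and Hmox1 1.92-fold (1.199 to 2.98), with 94.6 and 47.2 CPM, while Hmox2 was 0.317-fold (0.0841 to 0.850) on 4 and 69 UMIs. These were 2 higher and 1 lower of 16, where 18.6% of all genes passed the fold. The whole myeloid class, whose mix of neutrophils and monocytes differed between libraries, had 9 higher and 3 lower of 30 for the aged over the young library (45.3% of all genes) and 1 higher and 8 lower of 30 for the aged+AA over the aged library (31.2%).

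In haemoglobin-rich barcodes the red-cell members were lower in the aged than in the young library, relative to all genes: Prdx2 was 0.233-fold (interval 0.225 to 0.241), Gclm 0.241-fold (0.228 to 0.256), Gpx1 0.289-fold (0.282 to 0.296), Txnrd2 0.298-fold, Cat 0.342-fold, Ftl1 0.379-fold and Fth1 0.409-fold. The erythroid marker list was lower with them, at 36864 CPM of UMIs without haemoglobin in the aged and 65756 CPM in the young library. These list values were not divided by the all-gene median ratio, 1.573-fold in this class, as the members' folds were. The 2 scales therefore cannot be set against each other directly. The part of red-cell RNA as a whole in the result was not tested. Another 4 members were higher in the aged library, Gsr by 14.9-fold (7.78 to 32.7), Msrb1 by 8.02-fold (5.58 to 12.0), Prdx5 by 4.02-fold (3.00 to 5.50) and Txn1 by 2.61-fold (2.06 to 3.35). All 4 were high in neutrophils or monocytes and in the free RNA of the aged library, where Gsr had 319 CPM, Msrb1 408 CPM, Prdx5 497 CPM and Txn1 357 CPM, against 17.1, 48.3, 98.1 and 151 CPM in that of the young library. S100a8 and S100a9 together had 8772 CPM in these barcodes of the aged library and 28.7 CPM in the young library, on UMIs without haemoglobin, and their part in the result was not tested.
In all, 7 members were higher and 12 lower of 24, where 46.4% of all genes passed the fold (24.2% higher, 22.1% lower), and on plain CPM 10 were higher and 8 lower. Nfe2l2, at 1.66-fold, Gclc at 2.12-fold and Keap1 at 2.43-fold completed the higher ones, the last 2 with intervals that include 1. With ascorbic acid, Prdx6 (1.66-fold, interval 1.39 to 1.98) and Ftl1 (1.52-fold, 1.49 to 1.55) were higher than in the aged library, and Gsr (0.184-fold), Msrb1 (0.202-fold), Prdx5 (0.382-fold), Txn1 (0.426-fold) and Glrx (0.571-fold) lower, 2 higher and 5 lower of 25, where 24.1% of all genes passed the fold. On plain CPM 0 were higher and 9 lower. S100a8 and S100a9 had 1161 CPM in these barcodes with ascorbic acid, against 8772 CPM in the aged library, and their part in these ratios was not tested either.

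Among the pathway genes, the thioredoxin-binding protein Txnip, which inhibits thioredoxin, stood at 673 CPM in T cells of the aged and 1576 CPM in those of the young library (0.327-fold, interval 0.319 to 0.336), and at 815 and 1542 CPM in B cells (0.435-fold). With ascorbic acid it was 1.19-fold in T cells and 0.860-fold in B cells. Tfrc, which brings in transferrin-bound iron, was 0.407-fold in T cells (20.6 CPM in the aged, 38.9 CPM in the young library) and 0.360-fold in B cells (31.6 and 72.2 CPM), lower in the aged library beside the ferritin chains. Selenop was 0.373-fold in T cells and 0.667-fold in B cells, and Nfe2l1, the NRF2-related factor, 2.23-fold and 1.63-fold, with 0.561-fold and 0.660-fold for aged+AA over aged.
By list in T cells, glutathione genes were 2 higher and 4 lower of 15 for the aged over the young library, with Mgst2 at 0.602-fold and Gstm1 at 1.58-fold, NADPH supply 0 higher and 1 lower of 9 (Idh2, 0.606-fold), and NRF2 partners 2 higher and 2 lower of 9 (Bach2, 0.649-fold). Other thiol genes were 1 higher and 2 lower of 17 (Txndc5, 1.94-fold), other selenoproteins 1 higher and 2 lower of 14 (Selenom, 2.33-fold), and iron and haem genes 1 higher and 3 lower of 18, where 25.5% of all genes were past the fold. Of these 6 lists, 4 were below that share. The higher iron gene was Alas2 (2.70-fold), a red-cell gene, and the myeloid gene Cybb was 13.8-fold, both in the library with the most S100a8 and S100a9 in its T cells. Free RNA there held 26.8% haemoglobin, against 9.97% in the young library. The part of such RNA in these ratios was not tested. In B cells Slc3a2, a shared chain of amino acid transporters, was 0.618-fold for the aged over the young library and 1.56-fold for the aged+AA over the aged library, with 94.4, 66.9 and 89.1 CPM in the aged+AA, aged and young libraries.

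Members with little signal complete the set. Nqo1, a classical NRF2 target, had 4, 0 and 5 UMIs in T cells, 1, 1 and 2 in B cells and 5, 6 and 15 in haemoglobin-rich barcodes of the aged+AA, aged and young libraries, too few for any ratio. Gpx3 had 2 UMIs in T cells of each library. Srxn1 had 8, 7 and 9 UMIs in T cells, and Hmox1 35, 13 and 36. Nfe2l2 itself was even across lymphocytes, at 44.3, 41.2 and 44.8 CPM in T cells, 51.8, 43.9 and 45.7 CPM in B cells and 51.7, 57.5 and 46.7 CPM in NK cells. The members Prdx2, Sod2, Txn2, Msrb1 and Selenow stayed within 1.5-fold of the all-gene median in T and B cells for both pairs of libraries.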

How the data were processed

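UMI counts per gene and barcode were deposited as unfiltered matrices, 1 per library; Cell Ranger 4 is named in the file headers, and mm10 and Seurat 3.1.0 in the submitters' processing notes. No read-level step was redone. Cells were told from free RNA by an EmptyDrops-like test (adjusted p at most 0.01) and kept from 500 UMIs and 250 genes at up to 10% mitochondrial UMIs. They were freed of 366 to 455 predicted doublets per library with Scrublet in scanpy 1.11.5 (Python 3.11.15). Haemoglobin-rich barcodes had to meet the UMI and mitochondrial limits, with no gene minimum and no doublet step.

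Classes were gated on UMIs of their own marker list (at least 3 for T and B cells, 2 for NK cells, 5 for myeloid cells), with haemoglobin under 10% of UMIs. T, B and NK cells were allowed fewer than 5 UMIs of the myeloid list. Of the other lists at most 1 UMI was allowed, except that T cells had no limit on the NK list. For NK cells the limit on T-cell genes covered Cd3d, Cd3e and Cd3g alone. Neutrophils were myeloid cells with at least 3% S100a8 and S100a9 and no Csf1r. UMIs were summed per library and class. Classes were compared with edgeR 4.0.16 (R 4.3.3; quasi-likelihood, TMM, library as a block, at least 10 cells a sum, p adjusted over all genes). Class tests compared each class with the mean of the other white-cell classes, and haemoglobin-rich barcodes, without haemoglobin genes, with the mean of all 4. Each library stands for its own condition, so the block pairs classes cut from 1 library.

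Libraries were compared by CPM ratios divided by the all-gene median, with exact conditional binomial 95% intervals and a 1.5-fold limit, for genes with at least 50 UMIs in the pair and classes of at least 50 cells; a 0 was set to 0.5. Intervals cover counting error only. The statistics were tested on simulated data. Alternatives covered scaling, minimum counts, fold, mitochondrial and UMI limits, doublets, gates, free RNA, T-cell sub-gates, DESeq2 1.42.0, the block and each library left out.

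Members and lists were chosen with earlier results of these data known. All 31 members are named; from each pathway list the gene with the most UMIs and the genes past the fold with the most UMIs in each direction were eligible in T and B cells. Pathway genes named in the class tests, and the setting of the aged+AA against the young library, were chosen after values were seen. The counts of the phagocyte oxidase list are not reported here.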

Additional observations from a re-analysis of the deposited data

Results flagged for a closer look

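For 3 members the aged library lay above the young library in one cell class and below it in another, relative to all genes, and these differences between classes were not tested. Gclc was 2.12-fold in haemoglobin-rich barcodes (60 UMIs in the aged and 7 in the young library) and 0.436-fold in monocytes (146 and 9 UMIs). Prdx3 was 1.88-fold in monocytes (490 and 7 UMIs) and 0.281-fold in haemoglobin-rich barcodes, and Txnrd2 was 4.62-fold in monocytes (172 and 1 UMIs) and 0.298-fold in haemoglobin-rich barcodes. The values above 1 rest on 1 to 7 UMIs in the young library, and their counting intervals include 1, at 0.970 to 5.51 for Gclc, 0.906 to 4.71 for Prdx3 and 0.819 to 184 for Txnrd2.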

How the results depend on the processing

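No paired analysis was possible because each group is a single library, for the comparisons between libraries. The class tests had the library as a block, and without that replicate block members higher and lower were 6 and 10 in T cells, 3 and 13 in B cells, 2 and 10 in NK cells, 21 and 1 in myeloid cells, 12 and 1 in haemoglobin-rich barcodes, and 10 and 11 in neutrophils against monocytes, so no count moved by over 1.5 times. Leaving out each library gave 2 to 6 higher and 6 to 11 lower in T cells, 1 to 1 higher in NK cells, 1 to 2 lower in myeloid cells and 1 to 2 lower in haemoglobin-rich barcodes. With no low-count filter 2 members were lower in myeloid cells, and a stricter gate left 7 lower in NK cells.

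For aged+AA over aged, members past the fold, with no minimum of UMIs, were 4 in T cells, 4 in B cells, 8 in NK cells and 13 in haemoglobin-rich barcodes, and at a fold of 2 they were 0, 1, 0 and 4, and 3 in the myeloid class. A mitochondrial limit of 5% left 1 in T cells and 1 in NK cells, a stricter gate 1 and 0, subtracted free RNA 1 in B cells and 1 in NK cells, T cells without the effector genes 1, and a minimum of 20 UMIs gave 4 in NK cells. For aged over young, no minimum gave 9 in T cells, 7 in B cells, 5 in NK cells and 19 in the myeloid class, a fold of 2 gave 0 in T cells, 1 in B cells and 7 in the myeloid class, plain CPM and CPM without ribosomal and similar genes gave 1 each in NK cells, and T cells without effector genes gave 3. Fewer UMIs or a larger fold change these counts by construction; for the other settings the cause was not tested. Among the members' ratios between libraries that were past the fold in T and B cells, Gsr in B cells of the aged over the young library was the one that reversed, to -0.59 with free RNA subtracted; in the class tests the signs of Prdx4 in myeloid cells and of Hmox1 in T and B cells turned when a library was left out, as given beside them.

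Prdx6 kept its direction in every setting run, with relative log2 ratios of 0.46 to 0.75 in T cells and 0.56 to 0.80 in B cells for aged+AA over aged, and -1.03 to -0.48 and -0.65 to -0.27 for aged over young. Fth1 ranged over 0.13 to 0.40 and 0.39 to 0.56, and over -0.73 to -0.23 and -0.67 to -0.32. The myeloid class under the stricter gate had too few young cells for aged over young, and free RNA was not subtracted from haemoglobin-rich barcodes. Depth limits NK cells and young monocytes and neutrophils most.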

Other observations

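Among pathway genes not yet described, Maff, a small partner of NRF2-type factors, was 1.5003-fold in T cells (interval 1.33 to 1.69) and 2.05-fold in B cells for the aged+AA over the aged library, relative to all genes, and 0.557-fold in B cells for the aged over the young library, 2 comparisons that share the aged library. Of 9 NRF2 partners and regulators 1 was past the fold in each direction in both cell types for aged+AA over aged, and of 9 NADPH supply genes 0 were. In haemoglobin-rich barcodes the aged+AA library stayed below the young library for Prdx2 (0.317-fold), Gpx1 (0.285-fold), Gclm (0.375-fold) and Cat (0.385-fold), where 33.0% of all genes passed the fold, with 2 members higher and 9 lower of 19. The erythroid list summed to 51417 CPM of UMIs without haemoglobin in the aged+AA library and 65756 CPM in the young library. These list values were not divided by the all-gene median ratio, 1.273-fold in this class, as the members' folds were, so the 2 scales differ. The part of red-cell RNA as a whole in those folds was not tested.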
